A study of Mus musculus with 26 samples.

Results

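Mitochondrial fatty acid oxidation genes were followed in mouse lung macrophages during inflammation caused by lipopolysaccharide (LPS), a cell wall component of Gram-negative bacteria. The 34 genes were chosen by name, with earlier results of these data known, although the rule itself uses no measured value. All 34 were found among the 55487 genes of the count table. They fall into 8 roles: carnitine shuttle (4 genes), acyl-CoA synthetases (4), acyl-CoA dehydrogenases (9), later steps of the beta-oxidation spiral (5), auxiliary enzymes for unsaturated chains (3), electron transfer flavoprotein and its dehydrogenase (3), uncoupling proteins with a pyruvate dehydrogenase kinase (3) and propionyl-CoA breakdown (3). RNA came from macrophages derived from bone marrow (BM) 1 day (n = 5), 3 days (n = 4) and 7 days (n = 3) after LPS, whose route the series' text gives as IT. It also came from resident alveolar macrophages (AM) 1 day (n = 4), 3 days (n = 3) and 7 days (n = 4) after LPS, and from resident AM of mice without LPS, called day 0 (n = 3). The 26 libraries are named by group and replicate, so that BM_day1.3 is replicate 3 of BM day 1. The labels state neither strain, sex, age, genotype nor sorting gates, although the descriptions of the day 0 libraries hold the word Young. Whether replicates come from different mice is not stated, and every p-value here therefore speaks of the variation among these libraries, which could be technical.

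Fatty acids are activated to acyl-CoA by the synthetases, carried into the mitochondrial matrix as carnitine esters by the shuttle, and shortened there in rounds of dehydrogenation, hydration, further dehydrogenation and thiolysis. The electron transfer flavoprotein hands the electrons of the first step to the respiratory chain, while the uncoupling proteins and the kinase Pdk4 are known as companions of fat burning, Pdk4 because it slows the entry of pyruvate. In macrophages the pathway is best known for its link with alternative activation and with the handling of surfactant lipid in the alveolus.

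Promoters were read for the genes on which the results turn, with sequences from the RefSeq promoter table of build GRCm38.p6. Ucp3 and Ucp2, which encode related mitochondrial carriers, are neighbours on chromosome 7 in the same orientation, Ucp3 at chr7:100472990-100486432 and Ucp2 at chr7:100493337-100502020. Ucp3 was called lower in BM than in AM at days 1 and 3 and Ucp2 at day 7, while both had lower means in AM days 1 and 3 than in AM days 0 and 7, and no test compared the genes. The 250 bases before each RefSeq start are shown, 5′ to 3′ on the + strand, with each CG in capitals.
Ucp3 chr7:100472741-100472990: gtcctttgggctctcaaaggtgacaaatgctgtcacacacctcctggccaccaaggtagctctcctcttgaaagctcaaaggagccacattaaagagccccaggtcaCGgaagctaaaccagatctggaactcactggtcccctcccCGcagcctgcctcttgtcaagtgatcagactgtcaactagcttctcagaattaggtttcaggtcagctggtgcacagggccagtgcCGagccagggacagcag
Ucp2 chr7:100493108-100493357: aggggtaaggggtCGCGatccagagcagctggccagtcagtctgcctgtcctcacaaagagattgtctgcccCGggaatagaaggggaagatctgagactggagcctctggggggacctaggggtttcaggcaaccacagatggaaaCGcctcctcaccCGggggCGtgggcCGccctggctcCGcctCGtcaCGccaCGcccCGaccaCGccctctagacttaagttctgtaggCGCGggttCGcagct
The Ucp3 window holds 3 CG pairs and is 54.8% G or C, and the Ucp2 window holds 16 CG pairs and is 63.6% G or C. Hadha and Hadhb, the subunits of the mitochondrial trifunctional protein, start back to back, and these 85 bases of the + strand lie between their annotated starts, again with CG in capitals.
Hadha-Hadhb chr5:30155163-30155247: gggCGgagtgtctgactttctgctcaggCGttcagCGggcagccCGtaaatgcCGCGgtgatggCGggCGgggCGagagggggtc
This stretch holds 9 CG pairs and is 69.4% G or C. A direct repeat of AGGTCA with a single base between the copies (AGGTCANAGGTCA, both strands, up to 1 mismatch in each copy), the kind of sequence to which PPAR-RXR dimers are known to bind, was searched from 250 bases before to 50 after each start. It was found in 2 of the 30 members that have a promoter in the table, Etfa and Slc25a20, and in 2.4% of all 32851 promoters. Both matches are shown in capitals, the Etfa window from the - strand of the chromosome with the match on the opposite strand of the promoter, and the Slc25a20 match after the start.
Etfa chr9:55512288-55512340: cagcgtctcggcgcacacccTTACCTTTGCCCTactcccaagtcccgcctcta
Slc25a20 chr9:108662134-108662162: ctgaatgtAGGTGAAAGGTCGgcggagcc
A related single site (TCAAGGTCA) was found in 0 of the 30 members and in 0.423% of all promoters. The members' promoters held a median of 17.5 CG pairs and 60.7% G or C over 300 bases, and all promoters a median of 7 pairs and 52.7%. These matches describe sequence alone.

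Libraries held 9176202 to 80816742 counts, the 3 libraries of AM day 0 being deeper (35780951 or more) than the other 23 (27513205 or fewer). Resident alveolar macrophage markers summed to 1061 to 4176 CPM (a gene's count relative to its library's total, scaled by edgeR's TMM factors) in BM days 1 and 3 and to 18510 to 32760 CPM in all AM libraries. In BM day 7 they summed to 14790, 15580 and 2620 CPM in replicates 1, 2 and 3. Monocyte and recruited macrophage markers summed to 3630 to 9463 CPM in BM libraries and to 213 to 3910 CPM in AM libraries, with AM_day3.2, at 3910 CPM, inside the BM day 7 range of 3630 to 3914 CPM. Of 12 resident markers, 12 were lower in BM than in AM at days 1 and 3 and 2 at day 7, and of 12 monocyte markers, 11, 8 and 10 were higher at days 1, 3 and 7 (edgeR's quasi-likelihood test). BM_day3.1 stood apart, with 7609 genes detected, 27530 CPM of endothelium and fibroblast markers and a correlation with its group mates of 0.683 (median), and BM_day1.3 had 9167 genes detected. The other 24 libraries had 10692 to 20061 genes detected. The number that opens each library's description is 6483 in BM day 1 alone, 4645 in AM day 0 alone and 5341 in all others, so what that number stands for and these groups cannot be told apart. Y-linked RNA and Xist also differed between groups, Y-linked RNA being 7.75 to 38.4 CPM in BM day 1 and 0.103 to 4.09 CPM in BM day 7 and AM day 7, against 146 to 227 CPM in AM days 0, 1 and 3, and low in 2 and high in 2 of the 4 BM day 3 libraries. Libraries were stranded, but the strand setting of the counting is not given in the sources used here, and 14 members overlap a gene on the opposite strand, Hadha (Garem2), Echs1 (Paox), Acsl1 (Gm45244), Ucp2 (Dnajb13) and Ucp3 (Gm10603) among them, so reads of such pairs cannot be told apart. In these bulk samples, fewer cells of a type and less RNA per cell cannot be told apart.

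The fatty acid oxidation genes were lowest, as a whole, in BM day 1. Of the 34 genes, 25 had their lowest group mean in BM day 1 and 0 their highest. AM day 7 held the highest mean of 13 genes and AM day 1 that of 10. Summed over all 34 genes, the median library held 2243 CPM in BM day 1, 3339 in BM day 3 and 3127 in BM day 7, and 4724 in AM day 0, 3869 in AM day 1, 3883 in AM day 3 and 4588 in AM day 7. The BM day 1 libraries, at 1996 to 2641 CPM, all lay below the lowest library of every other group. Ucp2, the most abundant member, made up 26.8% to 52.1% of the sum, and without it the BM day 1 libraries (1054 to 1422 CPM) were still all below the others (1674 to 2864 CPM). Per kilobase of exon, Ucp2 ranked first in all 7 groups, at a mean of 151 CPM per kb in BM day 1 and 327 in AM day 0. Etfa ranked second in BM day 7 and in all 4 AM groups. At the low end of BM day 1 stood Ucp3, Pdk4 and Acad10, at 0.912, 0.171 and 0.0726 CPM per kb.

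**Figure D1:**
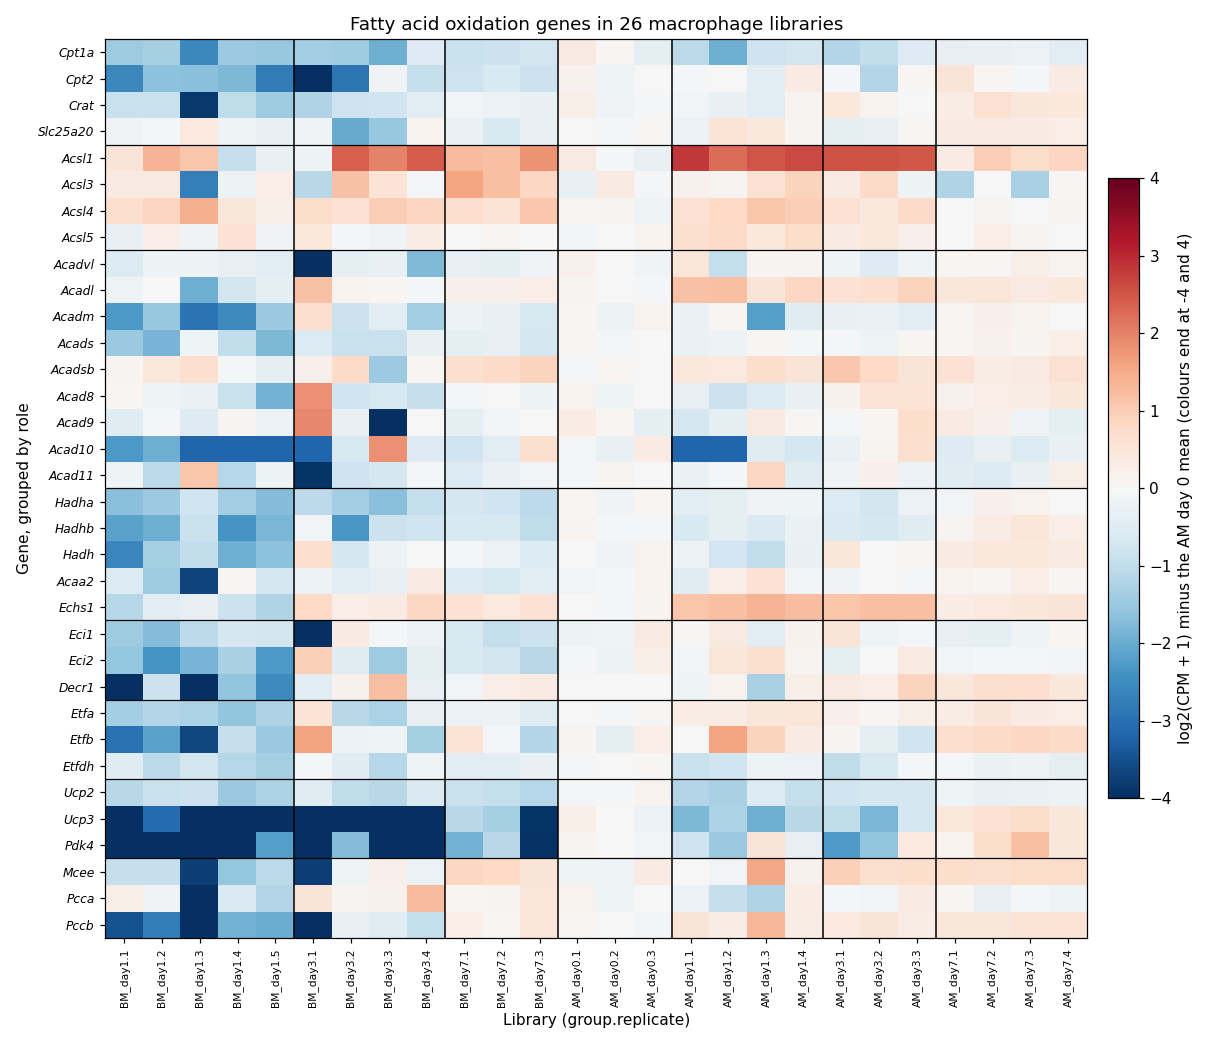
Level of each of the 34 genes (rows, grouped by role) in each of the 26 libraries (columns, BM groups left of AM groups), as log2(CPM + 1) minus the AM day 0 mean of the gene, with blue below and red above. BM day 1 columns are mostly blue, Ucp3 and Pdk4 are mostly deep blue through BM days 1 and 3, and Acsl1 is red in AM days 1 and 3.

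At day 1 after LPS, recruited cells held less RNA of fatty acid oxidation genes than resident cells. In BM day 1 against AM day 1, 18 of the 34 genes were lower and 0 higher at an adjusted p under 0.05 (Benjamini-Hochberg over all genes tested) in edgeR's quasi-likelihood test, where 29% of all 17143 genes tested were called, 15.2% higher and 13.8% lower. All 34 fitted changes were below 0, with a median log2 fold change of −1.14 against 0.06 over all genes tested. The call reached every role: 2 of 4 shuttle genes, 2 of 4 synthetases, 3 of 9 acyl-CoA dehydrogenases, 4 of 5 later spiral enzymes, 2 of 3 auxiliary enzymes, 2 of 3 electron transfer genes, 2 of 3 uncoupling and kinase genes and 1 of 3 propionyl genes. In 15 genes, all lower, no BM library reached the lowest AM library, while 23.3% of all genes were separated, 10.7% higher and 12.6% lower. BM day 1 libraries also held more replication-dependent histone RNA than AM day 1 libraries (681.5 to 1970 against 54.4 to 88.0 CPM) and more neutrophil marker RNA (531 to 1292 against 105.5 to 588 CPM, overlapping, 2 of 10 markers higher at an adjusted p under 0.05). Markers of macrophages in general (pan-macrophage) summed to 6653 to 8604 CPM in BM day 1 against 13910 to 25320 CPM in AM day 1. Of these, Cd68, Mertk and Lyz2 were lower in BM day 1, Fcgr1 and Csf1r higher, and Adgre1 was not called. Marker sums of 2 other cell classes did not overlap. Endothelium and fibroblast markers summed to 173.6 to 413 CPM in BM day 1 against 20.9 to 74.2 CPM in AM day 1 (2 of 8 markers higher), and dendritic cell markers to 59.5 to 145 against 13.9 to 46.5 CPM (0 of 7 higher, 1 lower). The opening number of the library descriptions was 6483 in BM day 1 and 5341 in AM day 1, so it and the groups cannot be told apart. Y-linked RNA was 7.75 to 38.4 against 191 to 217 CPM, and Xist 472 to 910 against 0 CPM. The part of any of these in the result was not tested, apart from a fit with a Y-linked covariate. Fitted to these groups alone, 10 members were lower, where 25.8% of all genes were called, and without BM_day1.3 and BM_day3.1 21 were, where 40.4% were.

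At day 3 the difference was called for Ucp3 and Hadha alone. In BM day 3 against AM day 3, 2 of 34 genes were lower and 0 higher in edgeR's test, where 3.98% of all genes were called, 0.997% higher and 2.99% lower, and the median log2 fold change of the members was −0.34, with Ucp3 at its fitted value or at the bound given with its values, against −0.07 over all genes. The groups did not overlap for 8 members, all lower in BM, while 15% of all genes were separated, 3.63% higher and 11.3% lower. BM_day3.1 stood apart here too: it was the highest BM day 3 library for Acsl5, Acadl, Acadm, Acad8, Acad9, Hadhb, Hadh, Eci2, Etfa, Etfb, Etfdh and Ucp2 and had 0 counts for 8 members. Its endothelium and fibroblast marker sum of 27530 CPM stands against 74.5 to 357 CPM in the other BM day 3 libraries. AM day 3 libraries held 2.88 to 61.1 CPM of these markers. Further sums did not overlap between BM day 3 and AM day 3. Neutrophil markers summed to 438.5 to 3207 against 205 to 386 CPM, and B cell markers to 61.7 to 218 against 14.0 to 41.0 CPM. Dendritic cell markers summed to 24.2 to 57.2 against 12.1 to 16.6 CPM, and pan-macrophage markers to 8521 to 21230 against 30100 to 43280 CPM. The part of any of these was not tested. Without BM_day1.3 and BM_day3.1, 6 members were lower, Acadl, Crat, Echs1 and Etfa in addition, where 6.13% of all genes were called. In a fit to these groups alone 0 were called, where 0.0472% of all genes were.

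At day 7, 7 of the 34 fitted changes were above 0 and the rest below, and 2 genes were called. In BM day 7 against AM day 7, Hadha and Ucp2 were lower and 0 were higher in edgeR's test, where 1.77% of all genes were called, 1.48% higher and 0.286% lower. The groups did not overlap for 26 of the 34 members, 21 lower and 5 higher (Acsl1, Acsl3, Acsl4, Acadsb and Pcca), while 29.7% of all genes were separated, 15.5% higher and 14.2% lower. The members' median log2 fold change was −0.45, against 0.03 over all genes. The count depended on the fit: 18 members were called, 15 lower and 3 higher, when these groups were fitted alone, where 20.4% of all genes were called, and 0 were called with the range of library numbers as a term. It was also 0 without BM_day7.2 and 0 without BM_day7.3, and 1 without AM_day7.2 or AM_day7.3. Against untreated resident cells, BM day 7 again had lower Hadha and Ucp2 and 0 higher members, where 2.16% of all genes were called. That comparison shares the BM day 7 libraries with the one before, and its groups also differ in Y-linked RNA and Xist. Marker sums of 3 other cell classes did not overlap between BM day 7 and AM day 7. B cell markers summed to 10.4 to 148 against 2.84 to 6.65 CPM, neutrophil markers to 156 to 475.5 against 76.1 to 108 CPM, and lung epithelium markers to 58.6 to 105 against 212 to 273 CPM (1 of 7 higher, 1 of 10 higher and 0 of 10 called). The lung epithelium difference was mostly Epcam (means of 6.807 against 168.6 CPM), with Cdh1 and Scgb3a2 also lower. Sftpc, Sftpb, Sftpa1, Scgb1a1, Krt8, Krt18 and Ager had higher means in BM day 7. BM_day7.3, without which both calls were lost, held 2620 CPM of resident markers against 14790 and 15580 CPM in BM_day7.1 and BM_day7.2. The part of these cells in the result was not tested.

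**Figure D2:**
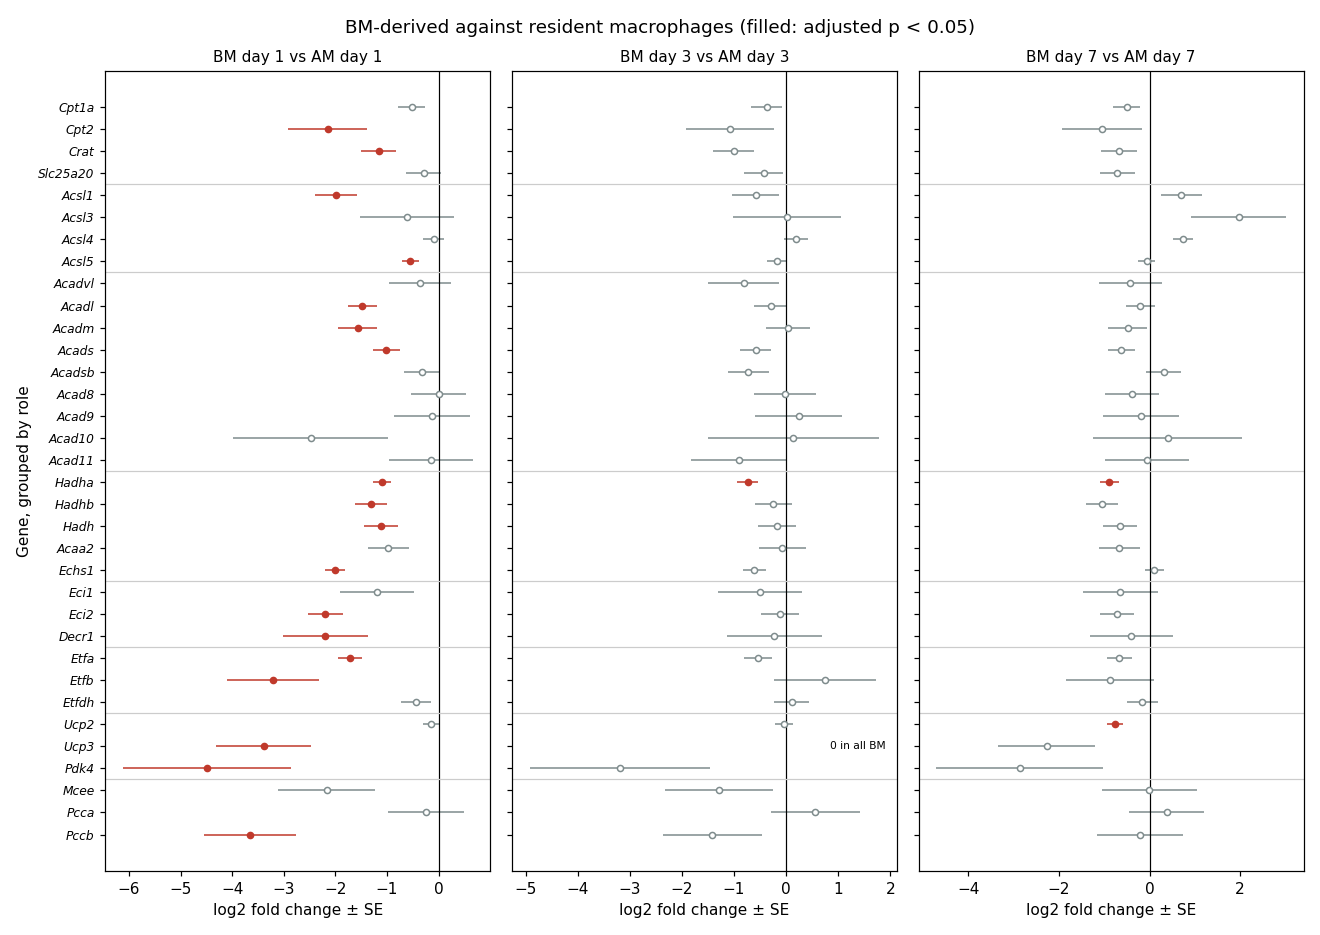
Log2 fold change of each gene in BM against AM cells at days 1, 3 and 7 (points, with bars of 1 standard error), filled where the adjusted p was under 0.05. At day 1 all 34 points lie below 0 and 18 are filled, at days 3 and 7 2 genes each were called, and Ucp3 at day 3 has no point because all BM libraries had 0 counts.

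In resident cells after LPS, a few single genes changed against day 0, in both directions. In AM day 1 against AM day 0, Acsl1, Echs1, Acsl4 and Acsl5 were higher and Cpt1a and Ucp2 lower, where 6.28% of all genes were called, 3.22% higher and 3.06% lower. In AM day 3 against AM day 0, Acsl1 and Echs1 were higher and Ucp2 lower, where 2.51% were called, 1.78% higher and 0.723% lower. In AM day 7 against AM day 0, 0 members were called in edgeR's test and by DESeq2, an unadjusted p under 0.05 was reached by 0 members, and 0.677% of all genes were called, 0.408% higher and 0.268% lower. The members' median log2 fold change was −0.01 at day 1, 0.08 at day 3 and 0.20 at day 7, against −0.20, −0.07 and −0.04 over all genes. The groups did not overlap for 17 members at day 1 (8 higher, 9 lower), where 30.5% of all genes were separated (9.36% higher, 21.2% lower). At day 3 they did not overlap for 18 members (10 higher, 8 lower), where 33.7% were separated (14% higher, 19.7% lower), and at day 7 for 19 (16 higher, 3 lower), where 26.8% were (12.1% higher, 14.7% lower). These comparisons share the AM day 0 libraries, which also had more T and NK cell marker RNA (30.6 to 61.1 CPM, against 0.711 to 12.7 in other AM libraries), more B cell marker RNA (162 to 205 against 2.84 to 132 CPM) and more dendritic cell marker RNA (99.6 to 263 against 12.1 to 52.1 CPM). AM days 1 and 3 held more neutrophil marker RNA (105.5 to 588 and 205 to 386 CPM, against 74.34 to 93.97 at day 0). Of these markers, S100a8 was called higher at both days and S100a9 at day 1. Both days also held more monocyte and recruited macrophage marker RNA (553.5 to 788 and 1337 to 3910, against 219.9 to 231 CPM). Their lung epithelium marker RNA was lower (60.97 to 106.7 and 62.49 to 121.3, against 249.4 to 373.2 CPM). Much of that was Epcam, at means of 19.98 and 15.69 against 152.8 CPM. Sftpa1, Krt8 and Krt18 had higher means at day 1 than at day 0, and Krt8 at day 3. At day 7 the neutrophil, monocyte and epithelium marker sums overlapped those of day 0. Histone RNA was 54.4 to 88.0 CPM at day 1 and 69.9 to 145 CPM at day 3, against 227 to 328 CPM at day 0. Y-linked RNA was 0.152 to 4.09 CPM at day 7 against 146 to 226 CPM at day 0, and Xist 280 to 328 against 0 to 144 CPM. The part of such cells or of histone RNA was not tested, nor that of Y-linked RNA or Xist beyond a Y-linked covariate. Fitted to the compared groups alone, 9 members were called at day 3 and 13, all higher, at day 7, where 15.9% and 16.9% of all genes were. Without AM_day0.1, or without AM_day0.2, 3 members were called at day 1 in place of 6.

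Between successive days after LPS, 1 member was called in resident cells. In AM day 3 against AM day 1, 0 members were called by edgeR's test and by DESeq2, and an unadjusted p under 0.05 was reached by 0, where 0.834% of all genes were called. The groups did not overlap for 5 members, 4 higher and 1 lower, while 13% of all genes were separated, 8.2% higher and 4.84% lower. In AM day 7 against AM day 3, Acsl1 was lower and 0 members were higher, where 1.59% of all genes were called. That call was lost on leaving out any of 21 of the 26 libraries, with adjusted p up to 0.201. AM day 7 and AM day 3 also differed in Y-linked RNA (0.152 to 4.09 against 194 to 227 CPM). With a Y-linked covariate the call was lost (edgeR adjusted p = 0.41).

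**Figure D3:**
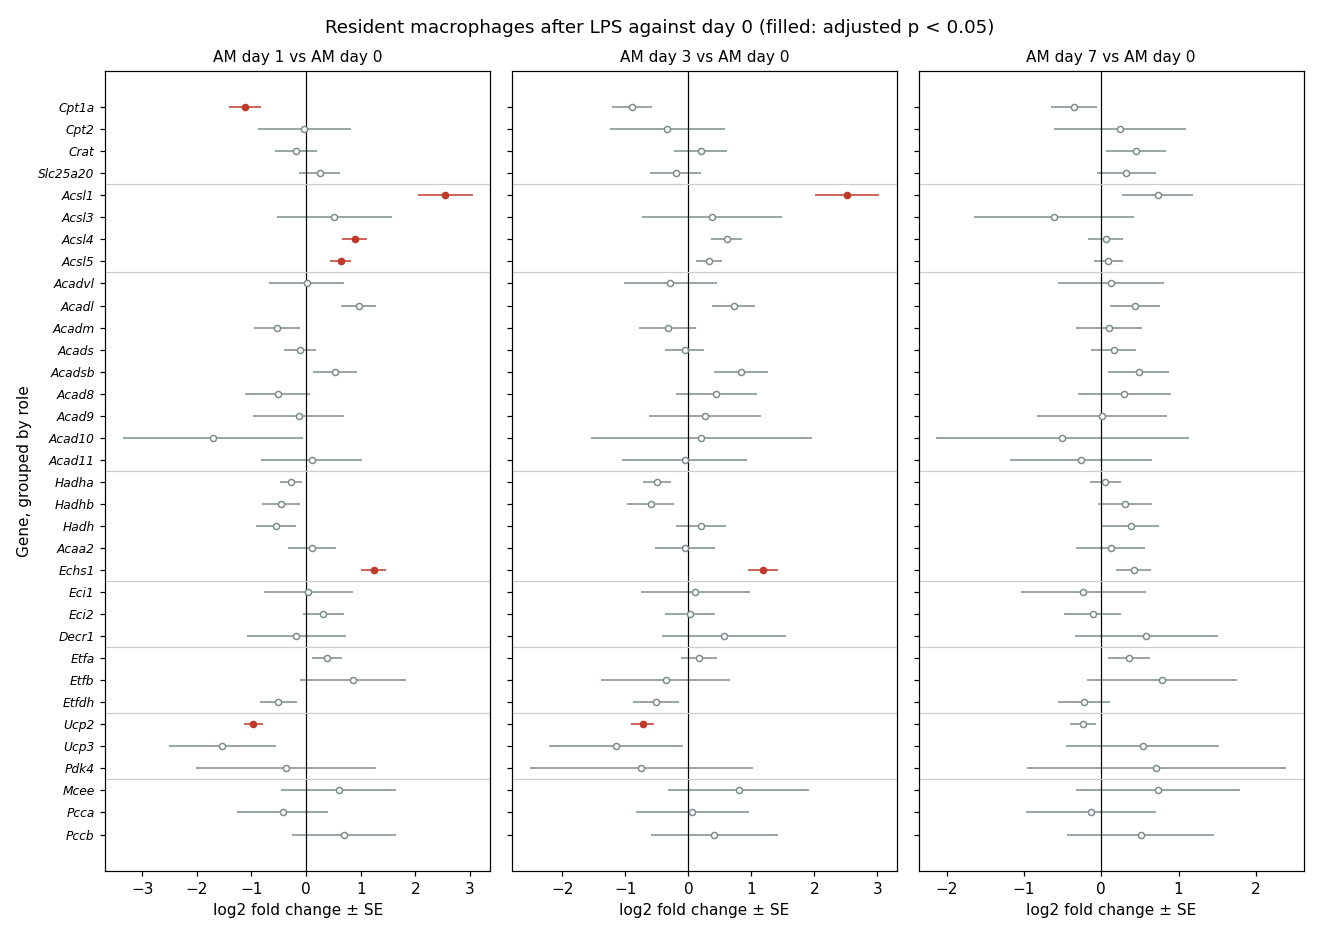
Log2 fold change of each gene in AM at days 1, 3 and 7 after LPS against AM of untreated lungs (points, with bars of 1 standard error), filled where the adjusted p was under 0.05. Acsl1 and Echs1 lie above 0 and Ucp2 below 0 at days 1 and 3, and no point is filled at day 7.

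In recruited cells, 11 members were higher at day 3 than at day 1, 1 was lower and 22 were not called. In BM day 3 against BM day 1, those higher were Acsl1, Acadl, Acadm, Acad10, Hadhb, Hadh, Echs1, Eci2, Decr1, Etfa and Etfb, and Ucp3 was lower, where 25.9% of all genes were called and 10.6% were higher. The members' median log2 fold change was 0.76, against −0.05 over all genes. BM day 3 and BM day 1 also differed in the opening number of their library descriptions, in histone RNA (46.1 to 106 against 681.5 to 1970 CPM) and in Y-linked RNA, whose part was not tested beyond a Y-linked covariate, with which 10 were higher and 1 lower. Without BM_day3.1 Acadl and Etfb were not called (adjusted p = 0.105 and 0.0995). Fitted to these groups alone, 1 member was called, where 8.87% of all genes were, and with the replicate block 7 were. In BM day 7 against BM day 3 Ucp3 alone was called, higher, where 3.98% of all genes were.

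The carnitine shuttle brings acyl groups into the matrix. Cpt1a, the outer-membrane transferase and the controlled step of the pathway, had 159, 171, 70.7, 156 and 148 CPM in BM day 1, 163, 159.7, 109.7 and 297 in BM day 3 and 231, 235 and 259.5 in BM day 7. In AM it had 549.6, 439.9 and 324 CPM at day 0, 202, 109.8, 241 and 255 at day 1, 191, 217 and 299.7 at day 3 and 338, 349.6, 361 and 320.5 at day 7. All AM libraries of days 1 and 3 lay below the lowest day 0 library. The fall was called at day 1, with a log2 fold change of −1.12 ± 0.29 (SE) and an edgeR adjusted p of 0.0189. At day 3 it was −0.89 ± 0.32 with an edgeR adjusted p of 0.205, which missed the threshold. The day 1 call was lost without AM_day0.1, AM_day0.2 or AM_day1.2 (adjusted p = 0.151, 0.0642 and 0.0837). In BM against AM the change of Cpt1a lay between −0.52 and −0.37 over the 3 days and was not called.

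Cpt2, the inner-membrane transferase that rebuilds acyl-CoA, had 4.15, 8.99, 8.71, 7.84 and 3.46 CPM in BM day 1, 0, 3.11, 26.9 and 15 in BM day 3 and 16.2, 19.1 and 16 in BM day 7. In AM it had 33.9, 26.7 and 29.5 CPM at day 0, 29.1, 29.2, 21.7 and 37.7 at day 1, 28, 12.8 and 30.6 at day 3 and 43, 31.7, 29.2 and 37.7 at day 7. BM day 1 lay wholly below AM day 1 and the BM day 3 libraries ranged from no counts to the AM range. The log2 fold change was −2.15 ± 0.76 in BM day 1 against AM day 1 (edgeR adjusted p = 0.0362). That call was lost without any of AM_day1.1, AM_day1.2, AM_day1.4, BM_day1.1, BM_day1.4 and BM_day1.5 (adjusted p up to 0.0806), and with a Y-linked covariate the change was −0.77. Crat, which exchanges short acyl groups between carnitine and CoA, was lower too (−1.16 ± 0.34, edgeR adjusted p = 0.0133), at means of 33.3 ± 16.9 CPM in BM day 1 and 74.3 ± 12.3 in AM day 1 (SD, n = 5 and 4). Slc25a20, the carnitine-acylcarnitine carrier, was called in 0 of the 12 comparisons.

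The acyl-CoA synthetases activate fatty acids before the shuttle, and Acsl1 had the largest called changes of any member in resident cells. Acsl1 had 119, 217, 179.5, 43.9 and 67.4 CPM in BM day 1, 72, 444, 333 and 449 in BM day 3 and 203, 192 and 294 in BM day 7. Resident cells held 108, 79.9 and 67.5 CPM at day 0, 597, 398, 479 and 522 at day 1, 492, 492 and 476 at day 3 and 105, 167, 140.1 and 152 at day 7. The AM libraries of days 1 and 3 lay far above those of days 0 and 7, which overlapped by a single library of day 7. Against day 0 the log2 fold change was 2.55 ± 0.50 at day 1 and 2.52 ± 0.51 at day 3 (edgeR adjusted p = 0.0017 and 0.00475). At day 7 against day 3 it was −1.79 ± 0.46 (edgeR adjusted p = 0.0447). In BM day 1 Acsl1 was lower than in AM day 1, with a log2 fold change of −1.99 ± 0.40 (edgeR adjusted p = 0.000689), with no overlap. It was higher in BM day 3 than in BM day 1, by 1.37 ± 0.40 (edgeR adjusted p = 0.0172), although BM_day3.1 stayed within the day 1 range, and the call was lost without BM_day3.2 or BM_day3.4 (adjusted p = 0.0512 and 0.0501). Acsl4, which prefers arachidonate, and Acsl5 were higher in AM day 1 than in AM day 0 (0.89 ± 0.23 and 0.64 ± 0.19, edgeR adjusted p = 0.0166 and 0.0453). Acsl5 was lower in BM day 1 than in AM day 1 (−0.55 ± 0.17, edgeR adjusted p = 0.0152), and Acsl3, at group means of 3.74 to 14.6 CPM, was called nowhere.

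The acyl-CoA dehydrogenases take the first electrons from the acyl group, and some of them differ in the chain length they act on. Acadl, the long-chain enzyme of the mouse, had 68.1, 77.7, 19.2, 46.5 and 58.6 CPM in BM day 1, 176, 84.4, 80.8 and 72.8 in BM day 3 and 89.3, 89.5 and 93.2 in BM day 7. In AM it had 83.3, 76.1 and 72.8 CPM at day 0, 177, 177, 111 and 137 at day 1, 116, 124 and 143 at day 3 and 106, 108, 100.1 and 104 at day 7. All AM libraries after LPS lay above those of day 0, yet the changes against day 0, 0.96 ± 0.32, 0.72 ± 0.34 and 0.43 ± 0.32 at days 1, 3 and 7, were not called, the smallest edgeR adjusted p being 0.0783. BM day 1 lay wholly below AM day 1, by −1.48 ± 0.28 (edgeR adjusted p = 0.000224). The medium-chain gene Acadm (−1.57 ± 0.38) and the short-chain gene Acads (−1.01 ± 0.26) were lower as well (edgeR adjusted p = 0.00275 and 0.00452). Acadvl, Acadsb, Acad8, Acad9 and Acad11 were called in 0 of the 12 comparisons. Acad10 was called once, higher in BM day 3 than in BM day 1 (4.53 ± 1.61, edgeR adjusted p = 0.0409), at 0, 4.93, 31.4 and 5.31 CPM in BM day 3 and 0.856, 1.35, 0, 0 and 0 in BM day 1. BM_day3.3 was the high library there, and BM_day3.1 was at 0 with most of BM day 1.

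The later spiral enzymes hydrate, oxidise and cleave the chain, and Hadha was the member called most often between the cell types. Hadha encodes the alpha subunit of the trifunctional protein, which carries out these steps on long chains. It had 98.6, 117, 184, 121 and 95.7 CPM in BM day 1, 152, 124, 99.8 and 162 in BM day 3 and 201, 181 and 152 in BM day 7. Resident cells had 329.9, 289 and 336 CPM at day 0, 239, 242, 289 and 282 at day 1, 215, 190.1 and 269 at day 3 and 293, 369, 348 and 311 at day 7. At each of days 1, 3 and 7 every BM library lay below every AM library of the same day. The log2 fold change in BM against AM was −1.09 ± 0.18 at day 1, −0.74 ± 0.20 at day 3 and −0.89 ± 0.21 at day 7 (edgeR adjusted p = 3.48e-05, 0.0365 and 0.0165). The day 3 call was lost without AM_day0.1, AM_day3.1, AM_day3.3, BM_day3.2, BM_day3.3 or BM_day7.2 (adjusted p up to 0.187), and the day 7 call without AM_day7.2, AM_day7.3, BM_day7.2 or BM_day7.3 (up to 0.163). DESeq2's size factors, library size alone, no filter, these groups alone and a Y-linked covariate also ended the day 3 call (edgeR adjusted p = 0.0588 to 0.22). The range of library numbers as a term ended the day 7 call (edgeR adjusted p = 0.111). BM day 7 was also below AM day 0, by −0.84 ± 0.22 (edgeR adjusted p = 0.0376), a call lost without any of 7 libraries. The replicate block, the range term and a Y-linked covariate each ended that call too (edgeR adjusted p up to 0.354). Hadhb, the beta subunit, was lower in BM day 1 than in AM day 1 (−1.31 ± 0.31, edgeR adjusted p = 0.00229) and higher in BM day 3 than in BM day 1 (0.92 ± 0.31, edgeR adjusted p = 0.0305). The Hadha change in that comparison was 0.13 ± 0.18 and was not called (edgeR adjusted p = 0.674), and the difference between the subunits was not tested.

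Echs1, the short-chain enoyl-CoA hydratase, had the smallest adjusted p of all members at day 1. It had 23.6, 38.3, 41.7, 28.9 and 22.7 CPM in BM day 1, 92.1, 63.5, 67.5 and 94.2 in BM day 3 and 80.2, 69.4 and 80.2 in BM day 7. AM libraries had 52.3, 50.4 and 56.8 CPM at day 0, 115, 124, 137 and 125 at day 1, 116, 124 and 123 at day 3 and 66.1, 69.6, 72.8 and 75.7 at day 7. The BM day 1 libraries were all below, and the AM day 1 and day 3 libraries all above, every library of the other groups. The log2 fold change was −2.01 ± 0.20 in BM day 1 against AM day 1 and 1.35 ± 0.19 in BM day 3 against BM day 1 (edgeR adjusted p = 1.34e-08 and 1.3e-05). In AM against day 0 it was 1.24 ± 0.23 at day 1 and 1.19 ± 0.24 at day 3 (edgeR adjusted p = 0.000629 and 0.00287). Hadh, the dehydrogenase for shorter chains, was lower in BM day 1 than in AM day 1 (−1.12 ± 0.32, edgeR adjusted p = 0.0117), and the thiolase gene Acaa2 was called in 0 comparisons.

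Among the auxiliary enzymes that deal with double bonds, Eci2 (−2.19 ± 0.33) and Decr1 (−2.20 ± 0.82) were lower in BM day 1 than in AM day 1 (edgeR adjusted p = 1.44e-05 and 0.0453). Both were higher in BM day 3 than in BM day 1 (1.78 ± 0.33 and 2.71 ± 0.83, edgeR adjusted p = 0.000344 and 0.0208), and Eci1 was called nowhere.

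The electron transfer flavoprotein is a dimer of Etfa and Etfb that passes electrons to Etfdh. Etfb had 0.593, 1.83, 0, 5.64 and 3.46 CPM in BM day 1, 37.5, 9.63, 10.3 and 4.05 in BM day 3 and 17.5, 11.1 and 4.63 in BM day 7. In AM it had 12.5, 8.86 and 14.1 CPM at day 0, 11.8, 36.6, 22.4 and 14.9 at day 1, 12.7, 8.56 and 6.3 at day 3 and 19.2, 20.4, 21.6 and 20.2 at day 7. BM day 1 was the lowest group, separated from AM day 1, while BM_day3.1 and AM_day1.2 were the highest libraries. Its log2 fold change was −3.21 ± 0.89 in BM day 1 against AM day 1 (edgeR adjusted p = 0.00837). Etfa was lower, with a log2 fold change of −1.72 ± 0.24 (edgeR adjusted p = 4.3e-06), at means of 45 ± 4.96 CPM in BM day 1 and 148 ± 9.86 in AM day 1 (SD, n = 5 and 4). In BM day 3 against BM day 1, Etfa was higher by 0.97 ± 0.24 and Etfb by 2.73 ± 0.87 (edgeR adjusted p = 0.00501 and 0.0252). Without BM_day3.1 the Etfb change was 1.80, and it was not called. Etfdh was called in 0 comparisons.

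The uncoupling proteins are inner-membrane carriers, and Ucp2 and Ucp3 are neighbouring genes whose difference was not tested. Ucp2 had 1054, 1219, 1265, 809 and 942 CPM in BM day 1, 1621, 1129, 1062 and 1539 in BM day 3 and 1235, 1176 and 1036 in BM day 7. In the AM groups it had 2155, 2208 and 2501 CPM at day 0, 1022, 931, 1559.5 and 1169.6 at day 1, 1308, 1389.9 and 1446 at day 3 and 2005, 1876, 1906 and 1977 at day 7. Ucp2 was thus high in all libraries, highest in AM of days 0 and 7, and BM and AM overlapped at days 1 and 3 but not at day 7. It was lower in AM day 1 and AM day 3 than in AM day 0, with log2 fold changes of −0.97 ± 0.17 and −0.73 ± 0.19 (edgeR adjusted p = 0.000463 and 0.0291). The day 3 call was lost on leaving out any library of either group (adjusted p up to 0.158). It was lower in BM day 7 than in AM day 7 and than in AM day 0, with log2 fold changes of −0.76 ± 0.18 and −0.99 ± 0.19 (edgeR adjusted p = 0.0171 and 0.00185). The call against AM day 7 was lost without BM_day7.2 or BM_day7.3 (adjusted p = 0.0619 and 0.139).

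Ucp3 had 2.96, 9.48, 0, 1.86 and 0 CPM in BM day 1, 0 in all 4 libraries of BM day 3 and 39.8, 33.9 and 4.74 in BM day 7. The AM libraries held 102, 86.5 and 73.8 CPM at day 0, 24, 35.3, 21.5 and 39.9 at day 1, 42.1, 24 and 52.4 at day 3 and 117, 129, 142 and 119 at day 7. Ucp3 RNA was thus near absent from early BM cells and present in all AM libraries, with its lowest AM levels on days 1 and 3. At day 1 it was lower in BM than in AM, with a log2 fold change of −3.39 ± 0.92 (edgeR adjusted p = 0.0101). That change was −4.59 without BM_day1.2, and it was not called in the fit to these groups alone (−3.33, adjusted p = 0.0828) or with a Y-linked covariate (−5.46, adjusted p = 0.0618). At day 3 the BM group had 0 counts, and a floor of 3 counts over the group (0.0402 CPM, counting error alone) makes Ucp3 at least 984-fold lower than in AM day 3 (edgeR adjusted p = 0.000589). By the same floor it was at least 71.2-fold lower in BM day 3 than in BM day 1 and at least 651-fold higher in BM day 7 than in BM day 3 (edgeR adjusted p = 0.00156 and 0.00057), although 2 of the 5 BM day 1 libraries were at 0 as well. These bounds leave out the spread between libraries, and Cpt2 had 0, 65, 630 and 273 counts in BM day 3. In fits to the compared groups alone, BM day 3 against AM day 3 and BM day 7 against BM day 3 were not called (edgeR adjusted p = 0.0766 and 0.101). The change between days 3 and 7 differed between BM and AM in the interaction test (edgeR adjusted p = 0.0376, higher in BM), the only member called there, where 0.362% of all genes were. That interaction was lost on leaving out any of 14 of the 26 libraries (adjusted p up to 0.112). The BM day 7 libraries with high Ucp3, replicates 1 and 2, were also those with high resident marker sums (14790 and 15580 CPM, against 2620 CPM in replicate 3), and the part of resident cells in these libraries was not tested. In BM day 7 against AM day 7 the groups did not overlap, but the change of −2.28 ± 1.06 was not called (edgeR adjusted p = 0.592), nor were the changes of −1.54 ± 0.98 at day 1 and −1.15 ± 1.06 at day 3 in AM against day 0.

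Pdk4, the kinase that switches off pyruvate dehydrogenase, had 0, 0, 0, 0 and 3 CPM in BM day 1, 0, 4.5, 0 and 0 in BM day 3 and 3.97, 7.51 and 0.206 in BM day 7. In resident cells it had 19.1, 17.2 and 16.3 CPM at day 0, 9.4, 5.61, 25.6 and 13.7 at day 1, 2.88, 5.19 and 23.3 at day 3 and 19.2, 29.7, 41.6 and 24.4 at day 7. A single BM library of day 1 and a single one of day 3 had any Pdk4 counts, while all AM libraries had some. It was lower in BM day 1 than in AM day 1, with a log2 fold change of −4.49 ± 1.63 (edgeR adjusted p = 0.0396). That call was lost without any of AM_day1.1, AM_day1.3, AM_day1.4, AM_day7.3 and BM_day1.1 to BM_day1.4 (adjusted p up to 0.0804). The changes at days 3 and 7, −3.20 ± 1.73 and −2.87 ± 1.84, were not called (edgeR adjusted p = 0.293 and 0.931).

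**Figure D4:**
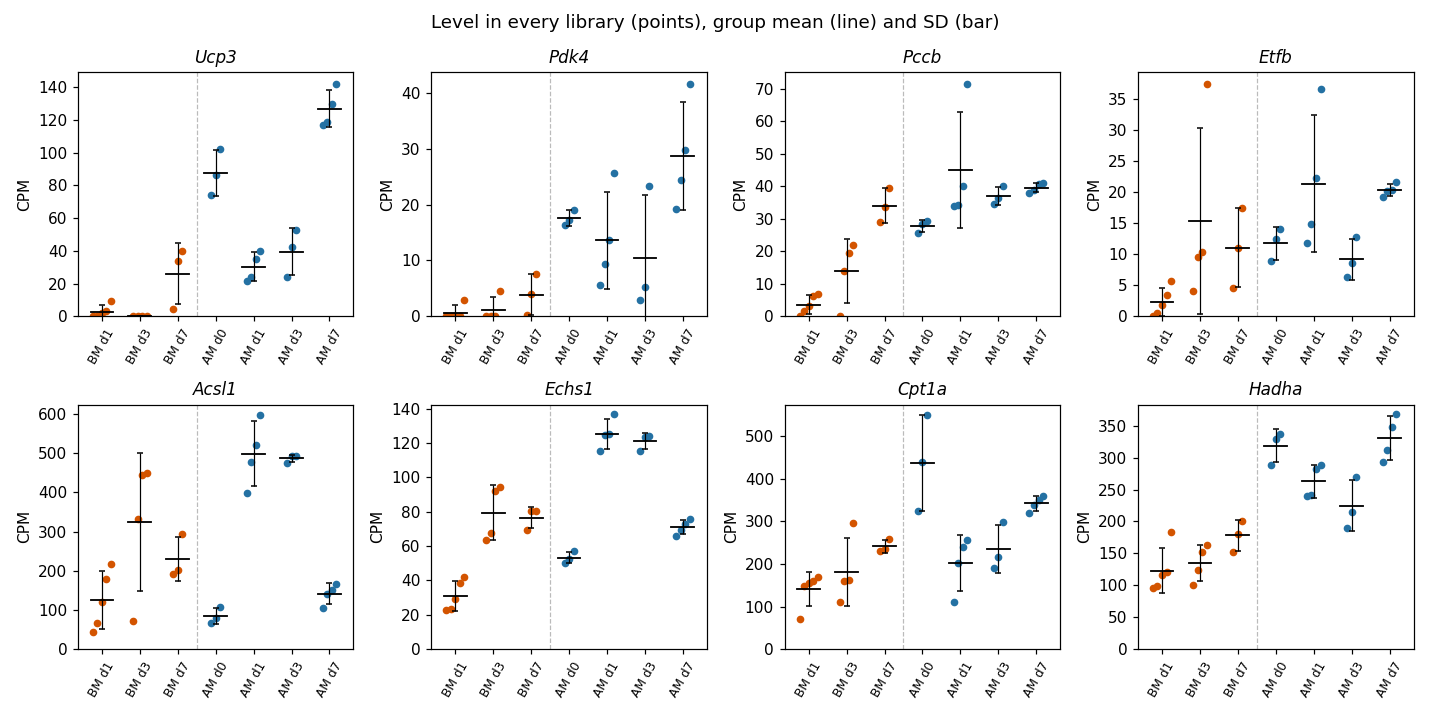
CPM of 8 genes in every library (points), with group means (lines) and SD (bars), for the BM groups at days 1, 3 and 7 and the AM groups at days 0, 1, 3 and 7. Ucp3 is at 0 in all BM day 3 libraries and 117 to 142 CPM in AM day 7, Acsl1 is 398 to 597 CPM in AM days 1 and 3, and Hadha is lower in BM than in AM at each shared day.

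Propionyl-CoA, the end product of odd-chain fat and of some amino acids, is carboxylated by Pcca and Pccb and isomerised by Mcee. Pccb had 1.58, 3.23, 0, 6.74 and 6.33 CPM in BM day 1, 0, 21.9, 19.5 and 13.8 in BM day 3 and 33.6, 29 and 39.5 in BM day 7. Resident AM had 29.3, 28.3 and 25.6 CPM at day 0, 40, 34.4, 71.5 and 33.9 at day 1, 36.3, 40 and 34.4 at day 3 and 38.7, 37.9, 40.8 and 40.7 at day 7. BM day 1 lay wholly below, and BM day 7 within, the range of all AM libraries, and BM_day3.1 was at 0. Its log2 fold change was −3.65 ± 0.89 in BM day 1 against AM day 1 (edgeR adjusted p = 0.00316) and 1.95 ± 0.85 in BM day 3 against BM day 1 (edgeR adjusted p = 0.0867, not called). Pcca and Mcee were called in 0 of the 12 comparisons.

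Genes around the pathway were read from lists chosen like the members, and their counts stand against 29% of all genes called in BM day 1 against AM day 1, 15.2% higher and 13.8% lower. Of 17 other genes of beta-oxidation and acyl-CoA breakdown, 1 was lower in BM day 1 than in AM day 1, the peroxisomal bifunctional enzyme gene Ehhadh (−3.31 ± 1.24), and 0 were called at days 3 and 7. Of 12 other transport genes, 2 were lower at day 1, the thioesterase gene Acot13 (−4.26 ± 1.27) and the fatty acid transporter gene Slc27a1 (−1.59 ± 0.33). Of 17 citric acid cycle genes, 7 were lower and 1, Dlst, was higher at day 1, with 0 called at days 3 and 7. Sdhd and Sdhc, membrane anchors of succinate dehydrogenase, changed by −1.49 ± 0.22 and −1.13 ± 0.21, and Mdh2, malate dehydrogenase, by −1.12 ± 0.20. Of 12 genes of pyruvate dehydrogenase and its control, 3 were lower at day 1: the pyruvate carrier gene Mpc1 (−2.67 ± 0.80), Dld (−1.63 ± 0.24) and Pdhb (−1.29 ± 0.32). Of 6 genes of branched-chain amino acid breakdown, 2 were lower at day 1, Bckdhb (−3.20 ± 1.08) and Bcat2 (−0.82 ± 0.22). These values are log2 fold changes with SE, and edgeR's adjusted p over all genes was at most 0.0465 for each. The lists' median log2 fold changes in that comparison were −1.22, −0.32, −0.74, −0.44 and −1.40 in the order given, against 0.06 over all genes and −1.14 over the members.

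Regulators of the pathway were led by Pparg, the lipid-sensing nuclear receptor on which alveolar macrophage identity rests, and Lpin1, a coactivator and phosphatidate phosphatase. Of 17 regulators tested, 3 were lower and 1 higher in BM day 1 than in AM day 1, and 3 were lower and 0 higher at day 3, with 0 called at day 7. Of all genes, 13.8% were lower and 15.2% higher at day 1, 2.99% and 0.997% at day 3, and 0.286% and 1.48% at day 7. Lpin1 had 20.7, 18.4, 17.4, 24.3 and 28.8 CPM in BM day 1, 0.495, 16.8, 9.84 and 19 in BM day 3 and 142, 137 and 46.2 in BM day 7. AM cells held 438, 398 and 326 CPM at day 0, 38.6, 24.5, 64.8 and 106 at day 1, 80.9, 95.2 and 138 at day 3 and 211, 221, 271 and 238 at day 7. Lpin1 was thus highest in AM day 0 and lowest in BM day 3, and BM_day7.3 held less than the other BM day 7 libraries, as for Ucp3. In BM against AM, Lpin1 changed by −1.42 ± 0.52 at day 1 and −3.17 ± 0.62 at day 3, and Pparg by −1.59 ± 0.30 and −2.51 ± 0.35 (largest edgeR adjusted p = 0.0465). Rxra, the partner receptor of Pparg, was lower at both times (−0.62 ± 0.20 and −0.81 ± 0.22), and Hif1a, the hypoxia factor, was higher at day 1 (1.02 ± 0.28, largest edgeR adjusted p = 0.0364). In BM day 7 against BM day 3, Lpin1, Pparg and Rxra were higher by 3.23 ± 0.62, 2.31 ± 0.34 and 0.87 ± 0.22 (largest edgeR adjusted p = 0.0247). In AM day 1 against AM day 0, Lpin1 and Rxra were lower, with log2 fold changes of −2.73 ± 0.61 and −1.36 ± 0.22 (edgeR adjusted p = 0.00606 and 0.000161).

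Targets of PPAR receptors outside the mitochondrion were counted beside them. Of 10 such genes, 7 were lower and 1 higher in BM day 1 than in AM day 1, 4 were lower and 0 higher at day 3, and 2 were lower and 1 higher at day 7. The shares of all genes were 13.8% lower and 15.2% higher at day 1, 2.99% and 0.997% at day 3, and 0.286% and 1.48% at day 7. Angptl4, an inhibitor of lipoprotein lipase, changed by −4.82 ± 1.02 at day 1, Lpl, that lipase, by −4.76 ± 0.29 and Fabp4, a fatty acid carrier, by −2.77 ± 0.50 (largest edgeR adjusted p = 0.00123). The gene higher in BM at days 1 and 7 was the cholesterol exporter Abca1 (1.73 ± 0.29 and 1.55 ± 0.31, edgeR adjusted p = 5.1e-05 and 0.00431). Fabp4 and Pparg are also among the resident markers used to check the labels.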

How the data were processed

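Counts per gene were deposited by the authors for 26 libraries. Per the submitters' processing notes, FastQC 0.11.9, Trimmomatic 0.39, HISAT2 2.1.0 and featureCounts 2.0.0 were used with GRCm38, while settings, strand setting and annotation release are not given in the sources used here. Groups came from the titles. Genes were kept by edgeR's filterByExpr (minimum count 10), which left 17143 genes and all 34 members, and scaled by TMM. One model of all 7 groups was fitted with edgeR 4.0.16 in R 4.3.3 (glmQLFit, glmQLFTest), with Benjamini-Hochberg adjustment over all genes tested in each of 12 comparisons. On data simulated with a common spread for all genes and changes placed in BM day 7 alone, the model recovered known changes. Only BM day 7 against AM day 7 was checked in this way, and libraries that stand apart were not simulated. Alternatives used other scalings, filters, groups, covariates, DESeq2 1.42.0 and omitted libraries. The omission of all BM day 1 libraries was added after seeing the data. Members named in full were Cpt1a, Cpt2, Hadha, Acadl, Ucp2, Pdk4, the interaction call, and up to 4 called members a comparison with the largest change and at least 5 CPM in the higher group, for BM against AM and for AM against day 0. Members, lists and rules were chosen with earlier results of these data known. Total counts of 9176202 to 80816742 set the precision, and floors cover counting error only. The 37 mitochondrial genome genes had 0 counts and were not used.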

Additional observations from a re-analysis of the deposited data

Results flagged for a closer look

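Dixon's criterion was applied to 135 sets, each of 1 member in 1 group of 4 or 5 libraries. In 12 sets, or 8.89%, a value lay far from the rest, which chance meets in about 1 in 20 sets of normally distributed values. A set with a single value above 0, as for Pdk4, always meets it. BM_day1.3 held 5 of the 12 values, and the other BM day 1 libraries are given as a range. Its Cpt1a was low at 70.71 CPM against 147.71 to 170.57, and 4 genes were high: Slc25a20 at 63.93 CPM against 39.18 to 45.87, Acad11 at 31.68 against 5.84 to 12.45, Hadha at 183.59 against 95.74 to 121.17, and Hadhb at 50.59 against 17.8 to 25.98. BM_day3.1 was high for Acadl, at 176.43 CPM against 72.81 to 84.36, and for Acad8, at 82.6 against 11.45 to 13.99. BM_day3.3 was high for Acad10, at 31.35 CPM against 0 to 5.31. Pdk4 was found in 1 library of each early BM group, at 3.0 CPM in BM_day1.5 and 4.5 CPM in BM_day3.2, the others being at 0. AM_day1.3, the library with the lowest total count, was high for Mcee, at 38.95 CPM against 11.69 to 14.62, and for Pccb, at 71.54 against 33.94 to 39.95. The change of Ucp3 between days 3 and 7 differed between BM and AM cells (interaction in edgeR's quasi-likelihood test, adjusted p = 0.0376).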

How the results depend on the processing

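Among the 30 named calls, 13 held under every alternative, 17 were lost under at least 1, and 0 reversed. Leaving out 1 library at a time gave 13 to 20 called members for BM against AM at day 1 (18 in the report), 1 to 3 at day 3 (2) and 0 to 3 at day 7 (2). It gave 3 to 7 for AM day 1 (6), 2 to 3 for AM day 3 (3) and 0 to 0 for AM day 7 (0) against day 0, 0 to 2 for AM day 7 against AM day 3 (1), 9 to 12 for BM day 3 against BM day 1 (12), 1 to 2 for BM day 7 against BM day 3 (1), 1 to 3 for BM day 7 against AM day 0 (2) and 0 to 1 for the interaction (1). Without BM_day3.2, Ucp3 and 1 other member were called in BM day 7 against BM day 3. Fitting the compared groups alone gave 10, 0 and 18 called members for BM against AM at days 1, 3 and 7, and 9 and 13 for AM at days 3 and 7 against day 0. It gave 11 for AM day 7 against AM day 3, 1 for BM day 3 against BM day 1, 0 for BM day 7 against BM day 3 and 13 for BM day 7 against AM day 0. Of all genes, these fits called 25.8%, 0.0472%, 20.4%, 15.9%, 16.9%, 16.6%, 8.87%, 0.308% and 15.1%, in the same order. For BM against AM at day 3, DESeq2's size factors, library size alone, no filter and a Y-linked covariate gave 1 each, leaving out BM_day1.3 and BM_day3.1 gave 6 and leaving out all BM day 1 libraries 5. At day 7 these last 2 gave 6 and 4, and the range of library numbers as a term gave 0. For AM day 7 against AM day 3, DESeq2's test, the stricter filter and no BM day 1 libraries gave 2 each, leaving out BM_day1.3 and BM_day3.1 gave 3, and no filter, the range term and the Y-linked covariate gave 0. For BM day 7 against AM day 0, the range term and the Y-linked covariate gave 1 and leaving out BM_day1.3 and BM_day3.1 gave 4. For the interaction, no filter, the range term and the Y-linked covariate gave 0. The causes were not tested.

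Libraries with the same title number, taken over all groups, did not deviate together (correlations of −0.0472 to 0.0694, and 3 libraries closest to their own number). The title numbers were therefore not taken as pairs. The numbers in the descriptions differ from the title numbers in AM day 3, BM day 1 and BM day 7. Pairing by those numbers within a day was not tested. With the replicate block, 7 members were called in BM day 3 against BM day 1, 1 in BM day 7 against AM day 0 and 0 in AM day 7 against AM day 3, and the other counts stayed within 1.5 times. Ucp3, Pdk4 and Acad10 had 0 counts in several early BM libraries. AM_day1.3, with the lowest total count, held 206 Ucp3, 246 Pdk4 and 53 Acad10 counts, and Acad10 was at 0 in AM_day1.1 and AM_day1.2. BM_day1.3 and BM_day3.1 had 9167 and 7609 genes detected, against 10821 in AM_day1.3. The part of depth or of genes detected was not tested.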
